A study of Danio rerio with 6 samples.

Results

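Sibling endothelial cells are the reference group of a zebrafish study of hhex, a homeobox gene, and are described here as a baseline transcriptome at 48 hours post fertilization (hpf). They are 2 of the 6 libraries of the series. Genes were chosen by one rule: the nuclear and mitochondrial ribosomal RNA genes (735 of biotype rRNA and 2 of biotype Mt_rRNA) were left out of the 31701 genes in the table, and the remaining 30964 genes were ranked by the mean of the 2 sibling libraries. The 200 highest-ranked genes, the marker lists of 19 cell types or states, and 3 functional classes were then described. The siblings are labelled wild type and came from the Tg(kdrl:EGFP)s843 line, in which a kdrl promoter drives EGFP, and cells were sorted as EGFP+. Siblings were told apart from mutants by the presence of parachordal lymphangioblasts, so that a sibling can still carry the mutation on 1 chromosome. The mutants carry the hhex s722 allele in the same EGFP background and were sorted by the same gate. The third group carries Tg(fli1a:tdTomato-2A-hhex)bns136, in which the fli1a promoter drives hhex, and was sorted as EGFP+ and tdTomato+, a gate that differs from that of the siblings. All embryos were 48 hpf. The labels number 2 replicates per group and do not say whether they came from separate clutches or sorts, so that spreads and p-values measure the difference between these libraries, which may be technical.

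Endothelial cells line blood and lymphatic vessels. Vegf receptors such as Kdrl, Kdr and Flt4 and the Tie receptors carry signals from their ligands into the cell, vascular cadherin joins neighbouring cells, and ETS factors such as Fli1a and Erg are known regulators of endothelial genes. In the zebrafish trunk at this stage, arterial vessels are marked by Notch pathway genes, and veins and the first lymphatic precursors by flt4, stab1, stab2, lyve1b and prox1a.

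The values are reads per gene divided by a size factor of the library and rounded to whole numbers, called normalized values below. They are not divided by gene length, so a rank orders genes by the reads they held and not by molecules. Normalized totals were 19133058 in sibling replicate 1 and 20725468 in replicate 2. Steps between low values put 1 read at an estimated 0.8102 and 0.958 units, which gives 23615228 and 21634100 reads on genes. The steps were matched at a correlation of 0.766 and 0.484, so that the estimate for replicate 2 is the less certain. Nuclear rRNA genes held 26.2% and 28.5% of these totals and mitochondrial rRNA genes 6.23% and 4.64%. After they were left out, 12929968 and 13848308 units remained, and 25910 and 24901 genes had a value above 0. The targeted gene, hhex (ENSDARG00000098231, GRCz10 chromosome 12, 47695602 to 47699931), had values of 204 and 279 in siblings. It had 613 and 1157 in the mutant libraries and 764 and 925 with overexpression, so that both sibling libraries lay below the other 4. The s722 allele is an in-frame deletion, so the transcript level does not check the mutant label.

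The remaining reads were concentrated on few genes. The 10 highest-ranked genes held 46.1% of the non-rRNA total in replicate 1 and 47.7% in replicate 2, and the 100 highest 56.5% and 57.6%. The lincRNA si:dkey-153m14.1 (ENSDARG00000096403, chromosome 20, 55338636 to 55339525) had 2578061 and 2884771 units, or 19.9% and 20.8% of that total. The gene zgc:158463 (ENSDARG00000089382, chromosome 5, 825789 to 827000), annotated as protein-coding, had 2392125 and 2615177 units, or 18.5% and 18.9%, and its nearest rRNA gene lies 66 bp away. These 2 genes were the first and second in both libraries and stood more than an order of magnitude above the gene ranked next. The non-rRNA total leaves out rRNA by annotated biotype only, and whether reads on these 2 genes came from rRNA was not tested. Class shares of the non-rRNA total keep both genes in the denominator.

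The next ranks were held by short annotated loci, some of them in copies. The symbol wu:fi09b08 stood at 3 positions in the 20 highest genes, with 174903 and 175555 units for the copy on chromosome 5 from 833762 to 833929, 174862 and 175547 for that from 822115 to 822282, and 120522 and 121901 for that on chromosome 4. The annotated microRNA genes BX537263.2 and BX537263.1, which lie close to the 2 chromosome 5 copies, had 119645 and 139793 and 119603 and 139761 units. The nearest annotated rRNA gene lies between 3001 and 3292 bp from each of these loci. Whether their reads came from rRNA was not tested either. Of 1413 genes with a sibling mean of at least 1000, 22 had values within 0.5% of those of another gene in all 6 libraries, 18 of them not protein-coding, although the study states that reads aligned to several places were left out. For such copies the division of reads between loci is uncertain.

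Small structural RNAs and housekeeping genes made up the rest of the 20 highest. Metazoa_SRP, the RNA of the signal recognition particle, had 111310 and 149452 units, the snoRNA U3 76786 and 105227, the nuclear lincRNA malat1 86865 and 94071, and rn7sk, which binds the elongation factor P-TEFb, 28599 and 36927. A pair of U2 snRNA loci on chromosome 13 had 21686 and 30423 and 21681 and 30422 units. Metazoa_SRP, U3, malat1, rn7sk and both U2 loci were higher in replicate 2, and for malat1 the difference was the smallest. Among protein-coding genes eef1a1l1 and eef2b, which encode elongation factors of translation, had 72121 and 68259 and 35509 and 32147 units. The chaperone genes hspa8 and hsp90ab1 had 52360 and 45253 and 48802 and 47899 units, and actb2, a cytoplasmic actin, 28518 and 31961. The uncharacterized gene CT583728.4 had 71377 and 66474. The fast skeletal muscle myosin heavy chain gene myhz1.1, at rank 18, had 34428 and 21763 units.

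**Figure D1:**
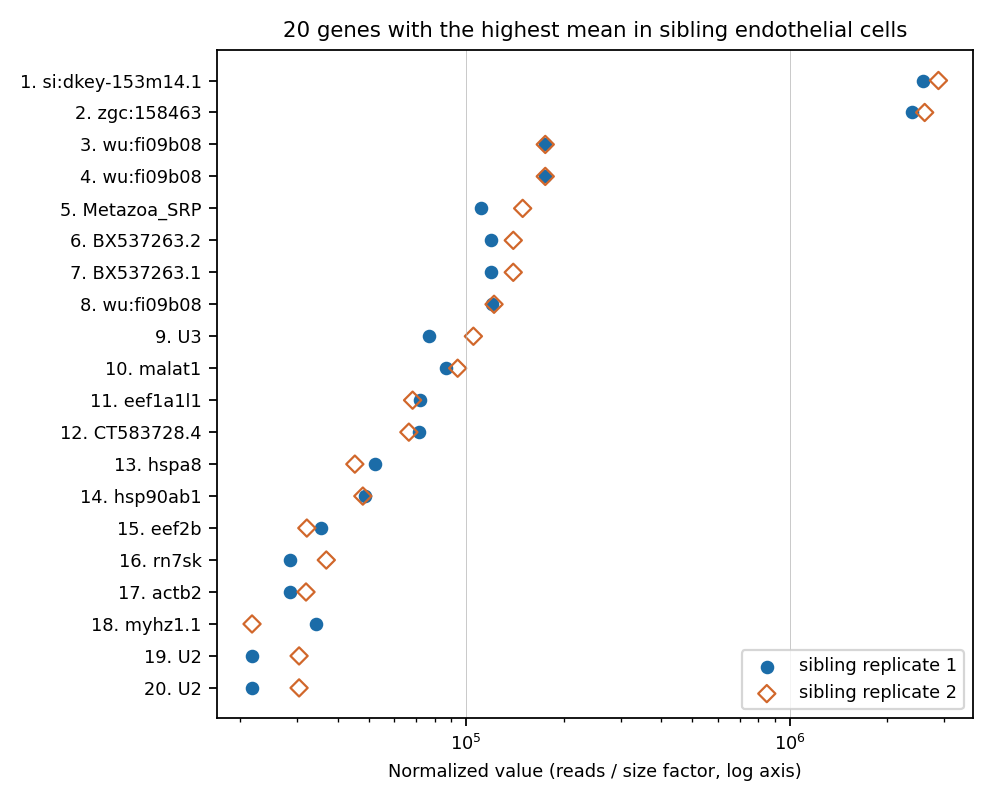
Normalized values (x axis, log scale) of the 20 genes with the highest sibling mean, with filled circles for sibling replicate 1 and open diamonds for replicate 2. The first 2 genes stand between 2392125 and 2884771 units, and myhz1.1 is the one of the 20 whose replicate 1 value (34428) most exceeds its replicate 2 value (21763).

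By symbol and biotype, the 200 highest-ranked genes held 48 genes of cytosolic ribosomal proteins, led by rpl4, rplp1 and rpl3, and 15 snRNA loci. They also held 9 genes each of cytoskeletal proteins, heat shock proteins, skeletal muscle, translation factors and the mitochondrial genome. Endothelial markers took 4 places, cdh5, kdrl, notch1b and tie1. The matrix gene col4a1 and the transcription factor gene junbb took 1 place each in that grouping, and 70 protein-coding genes fell into none of the groups. The rest were of other biotypes, 6 of them misc_RNA and 3 snoRNA. Every snRNA locus of the 15 was higher in replicate 2, as were 6 of the 48 ribosomal protein genes. All 9 mitochondrial genes were higher in replicate 1, led by mt-co1, a subunit of cytochrome c oxidase, with 22960 and 17901 units. Over the 13 mitochondrial protein genes of the table, 13 were higher in replicate 1, by a median log2 ratio of -0.36 of replicate 2 to replicate 1.

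The endothelial class had 74 genes in 6 lists, and held 0.749% and 1.13% of the non-rRNA total. All 28 pan-endothelial genes had a mean of at least 100 and 18 a mean of at least 1000, so that none of the defining markers of the sorted cells was absent. The gene cdh5, which encodes vascular endothelial cadherin (ENSDARG00000075549, chromosome 7, 44106370 to 44180006), ranked first among them with values of 11023 and 16894 (13958.5 ± 4151, SD, n = 2) and rank 40 of all genes. The gene kdrl, a Vegf receptor whose promoter drives the sorted EGFP (ENSDARG00000105215, chromosome 14, 32643455 to 32704641), had 9372 and 17884 (13628 ± 6019, SD, n = 2) and rank 41. Below them came tie1, a Tie receptor gene, with 3811 and 5548, and the ETS factor gene fli1a with 3241 and 4870. For each of these 4 genes replicate 2 was the higher library. The lowest of the list were hhex, tal1, a blood and endothelial regulator with 370 and 351, and lmo2, its cofactor, with 403 and 423.

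Arterial genes had a wide range. The Notch receptor gene notch1b ranked 51 with 10105 and 12995 units, dll4, a Notch ligand gene, had 2539 and 3356, and efnb2a, the gene of an arterial ephrin, 1475 and 1848. Of the venous and lymphatic list, 15 of 15 genes had a mean of at least 100 and 6 a mean of at least 1000. The scavenger receptor genes stab1 and stab2 had 2453 and 5117 and 1838 and 4333 units, and the mannose receptor gene mrc1a had 2111 and 4499. The Flt4 receptor gene, flt4, had 1052 and 2166, and prox1a, the lymphatic homeobox gene, 439 and 880. Every gene of this list was higher in replicate 2, lyve1b with 190 and 483 among them.

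Further lists covered states of the endothelium. The tip cell genes were led by apln, the gene of a secreted peptide, with 719 and 1153 units, esm1, a proteoglycan gene, with 536 and 821, and adgrl4, an adhesion G protein-coupled receptor gene, with 521 and 626. The endocardium and flow list was led by klf2b (2622 and 3241), klf6a (1795 and 2902) and nfatc1 (1591 and 2240), all transcription factor genes. Of the brain endothelium list, adgra2, the gene of a Wnt7 coreceptor, had 689 and 1353, lef1, a Wnt effector gene, 319 and 324, and slc7a5, an amino acid transporter gene, 206 and 184. Barrier genes of that list were lower, with 41 and 33 for the glucose transporter gene slc2a1a and 49 and 59 for mfsd2aa. The nitric oxide synthase gene nos2b was near 0 (6 and 14).

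Blood genes, 46 in all, held 0.190% and 0.150% of the non-rRNA total. The highest was lcp1, an actin-bundling protein of leukocytes, with 4417 and 3923 units. It was followed by hbbe1.1, an embryonic beta globin gene (2713 and 1550), srgn, a proteoglycan gene of blood cell granules (1849 and 1854), lyz, the lysozyme gene (1496 and 1951), and myb, a regulator of blood stem cells (1836 and 1270). The sixth was coro1a, a leukocyte coronin gene (1525 and 1474). The other leading globin genes, hbae3 and hbbe1.2, had 1589 and 996 and 1321 and 722. Globin genes are near copies of each other, and hbbe1.1 and hbbe1.2 overlap in the annotation, so that the division of reads among them is uncertain. The macrophage genes mpeg1.1 (2 and 15), mfap4 (12 and 4) and marco (15 and 1) were near 0. Of these mfap4 overlaps 2 genes on its strand in the annotation, so that its value may be partial. The globin gene hbae5 had 7 and 0. The neutrophil peroxidase gene mpx, by contrast, had 403 and 963. In the stem cell and thrombocyte list, ikzf1, a lymphoid and stem cell zinc finger gene, had 864 and 579 and mpl, the thrombopoietin receptor gene, 623 and 359, while itga2b, a thrombocyte integrin gene, had 88 and 40.

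Genes of other tissues, 145 in all, held 1.53% and 1.03% of the non-rRNA total, and skeletal muscle made up most of it with 1.22% and 0.708%. Of the 26 muscle genes, 24 had a mean of at least 100, 19 a mean of at least 1000, and 8 stood among the 200 highest. After myhz1.1 came its neighbours myhz1.2 (25135 and 18066), myhz1.3 (15693 and 9923) and myhz2 (13067 and 9187), whose near-identical coding sequences leave the division of reads between them uncertain. The titin gene ttn.2 had 11427 and 4416 units, and it overlaps ttn.1. The muscle regulator gene myog (2 and 2) and the slow myosin gene smyhc1 (45 and 26) were low. In bulk libraries such as these, fewer cells of a type and less RNA per cell cannot be told apart, and whether muscle genes were read from sorted cells or from other material was not tested.

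The remaining tissue lists were lower. Epidermal keratin genes were led by krt8 (9403 and 16102) and krt18 (6083 and 9319), which simple epithelia and other cells also use, and by krt4 (2739 and 1182). Both krt8 and krt18 were higher in replicate 2, whereas krt4 and the epidermal keratin genes krt5 (427 and 85), krt91 (228 and 52) and krt17 (143 and 38) were higher in replicate 1. In the annotation krt91 overlaps cyt1 and krt17 overlaps cyt1l, so that the division of reads among them is uncertain. Across the 6 libraries krt8 was lowest in mutant replicate 1 (6596) and highest in overexpression replicate 1 (28489), as was cdh5 (6545 and 26660). Mesenchymal collagen genes had 2213 and 1527 for col1a1a, 1630 and 1383 for col5a1 and 1524 and 1415 for col1a1b. Neural genes were led by nova2, an RNA-binding protein gene (1794 and 2314), and the tubulin genes tuba1a (765 and 631) and tuba1c (778 and 616), while the neuron-specific elavl3 had 331 and 156. The cartilage list was led by col2a1a (736 and 1513), hand2 (220 and 278) and col9a1b (88 and 402).

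Markers of heart muscle, lens, liver, pigment cells, kidney tubule and gut were mostly low. The medians of the sibling means in these lists ran from 4 (lens) to 23.25 (pigment). Heart muscle was led by tnnt2a (332 and 207), vmhc (97 and 45) and myh6 (15 and 25), with myl7, a light chain of heart myosin, at 9 and 13, nppa, the natriuretic peptide gene, at 4 and 4, and cmlc1 at 10 and 2. Liver and yolk genes were led by apobb.1 (198 and 224), apoa1b (71 and 84) and apoa1a (48 and 78), and the hepatocyte gene fabp10a had 1 and 5. Pigment genes were led by pax7a (70 and 76), pmela (27 and 115) and mitfa (54 and 15). Kidney and gut genes were led by atp1a1a.4 (198 and 70), which overlaps atp1a1a.1, cdh17 (112 and 59) and foxa3 (53 and 80). The lens list was led by cryba2b (98 and 160), mipb (17 and 5) and cryba1b (12 and 1). The neural crest gene foxd3, the gut gene cldn15la and the lens genes crygm2d1 and lim2.4 were at 0 in both libraries, where a count of 0 allows up to 3 reads, or 2.43 and 2.87 units. That limit covers counting error only and rests on the estimated units per read. In the annotation crygm2d1 overlaps 15 genes on its strand and foxd3 overlaps 1. The study states that reads over several genes were left out, and the limit does not cover such reads.

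The functional classes were taken from the GO terms deposited with the table, which 9403 of its genes carry, so that genes without terms are missing from them. Transcription factor genes (391) held 0.857% and 0.909% of the non-rRNA total. They were led by the AP-1 family genes junbb (4271 and 6366) and fosl2 (3590 and 5309), followed by fli1a, junba (3282 and 4438), ahr2, an aryl hydrocarbon receptor gene (3887 and 3605), and elmsan1b (2824 and 4106). Of these 6 genes ahr2 was the one with a lower value in replicate 2. AP-1 genes are known to respond fast to stimulation and stress of cells, which was not measured here.

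Receptor genes (639) held 0.523% and 0.625%, and 40 of them were at 0 in both libraries. After kdrl the next within the class was rpsa (10406 and 9574), a ribosomal protein gene that carries a laminin receptor term. Then came tie1, ahr2, kdr, a second Vegf receptor gene (2350 and 3823), and nrp1b, a neuropilin coreceptor gene (1518 and 2478). The receptor genes notch1b, stab1, stab2, mrc1a, flt1 and flt4 are among those that carried none of the receptor terms used and are missing from this order. Matrix genes (183) held 0.384% and 0.462%. The 6 leading ones were of basement membrane or its surroundings: col4a1 (3262 and 5987) and col4a2 (1703 and 3021), the chains of collagen IV, nid1b, a nidogen gene (3225 and 5469), hspg2, the perlecan gene (2027 and 3526), lamc1, a laminin chain gene (1687 and 2638), and fn1a, a fibronectin gene (3343 and 4136). All 6 were higher in replicate 2, by up to 1.84-fold for col4a1.

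**Figure D2:**
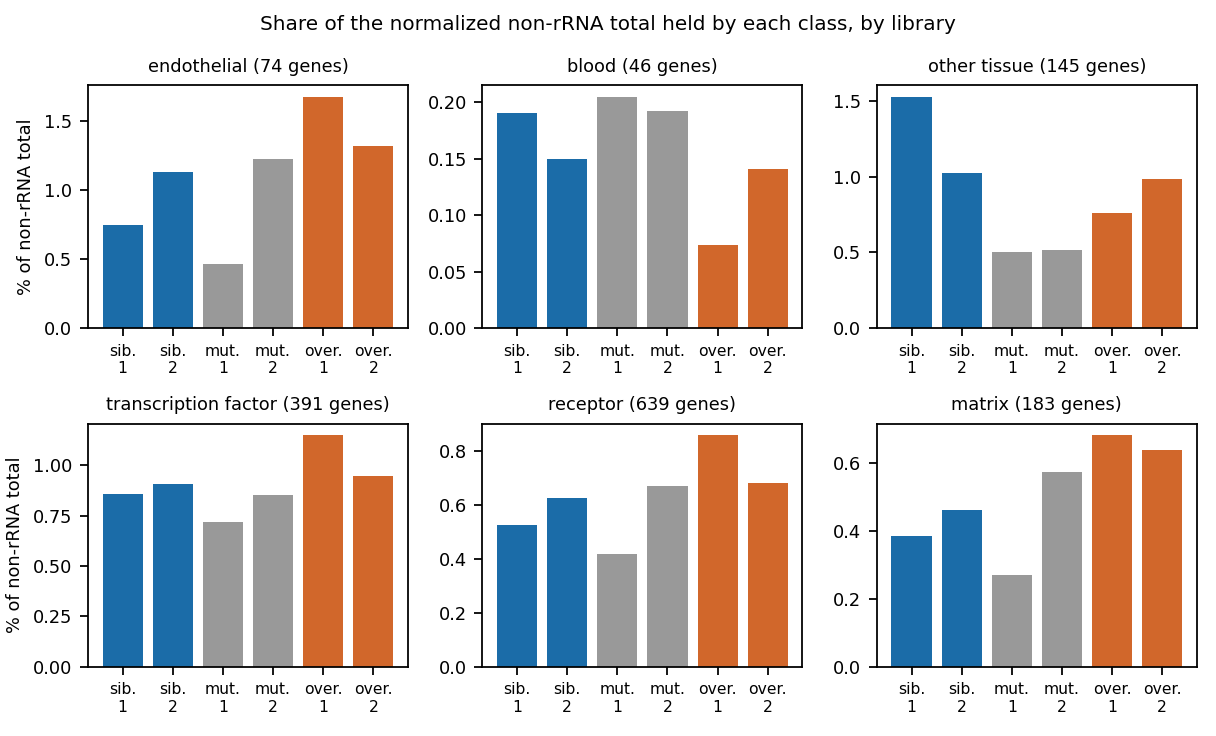
Share of the normalized non-rRNA total (y axis, percent, each panel from 0) held by the genes of 6 classes in the 2 sibling, 2 hhex mutant and 2 hhex overexpression libraries. In siblings the endothelial class is at 0.749% in replicate 1 and 1.13% in replicate 2. The class of other tissues is at 1.53% and 1.03%, above the 4 other libraries (0.503% to 0.986%). Skeletal muscle makes up most of it in siblings (1.22% and 0.708%). The epidermis list is not above the others, at 0.168% and 0.204% in siblings. It is at 0.101% and 0.229% in mutants and 0.387% and 0.300% with overexpression.

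The 2 sibling libraries were alike for most genes. Over 20902 genes with a sibling mean of at least 5, the log2 values (with 1 added) correlated across genes at Pearson 0.931 and Spearman 0.945, a description since genes are not independent replicates and their levels span several orders of magnitude. Of these genes 81.5% lay within 2-fold, with a median absolute log2 ratio of 0.415 and a median log2 ratio of -0.0083. The likeness depended on the level. It was 57.4% within 2-fold for means of 5 to under 20, 76.2% for 20 to under 50, 91.7% for 50 to under 200, 97.4% for 200 to under 1000 and 96.8% at 1000 and above. At a mean of at least 50 the median SD on the log2 scale was 0.20 in siblings, 0.30 in mutants and 0.17 in overexpression, and 94.6%, 81.4% and 95.4% of genes lay within 2-fold.

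The ranks were also shared. The 20 highest genes of each library had 17 in common, the 100 highest 83, the 200 highest 170 and the 1000 highest 870. The differences that remained were not spread evenly over cell types.

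**Figure D3:**
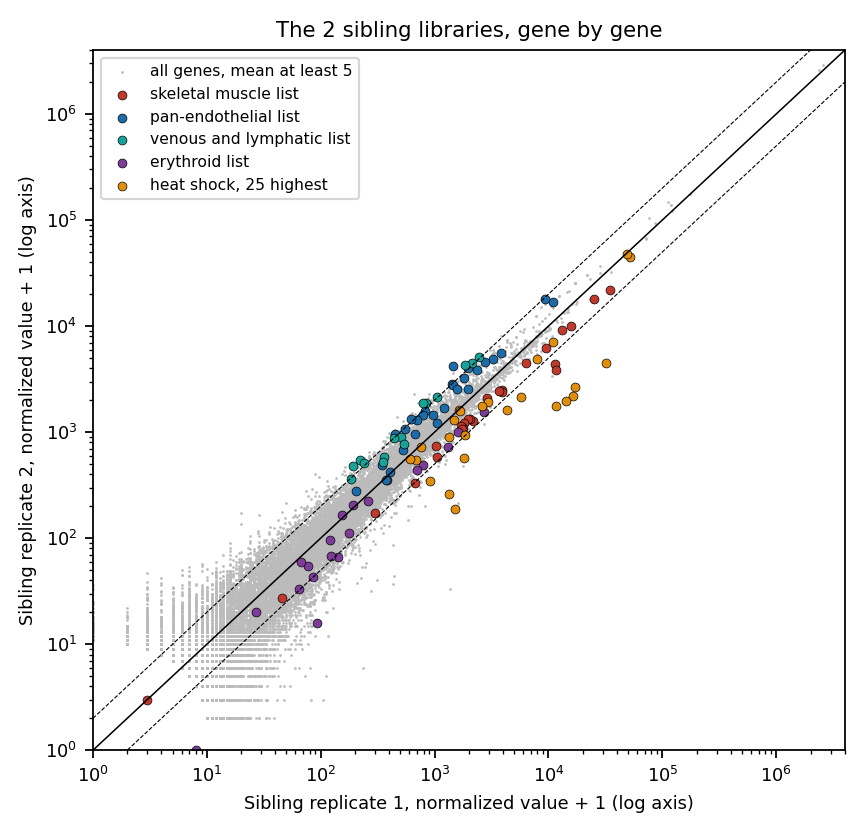
Normalized value plus 1 of every gene with a sibling mean of at least 5 in replicate 1 (x axis) and replicate 2 (y axis), both on log scales, with the line of equality solid and 2-fold lines dashed. Of the pan-endothelial genes (blue) 27 of 28 and of the venous genes (green) 15 of 15 lie above the solid line, skeletal muscle genes with a mean of at least 5 (red) and 16 of 18 such erythroid genes (purple) lie below it, and several heat shock genes (orange) far below.

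Replicate 2 held more reads of the endothelial lists, by their summed values. Of the pan-endothelial list, 27 of 28 genes were higher in replicate 2, with a median log2 ratio of 0.70 where all genes had -0.0083, and the summed values differed by 1.69-fold. The exception, tal1, was at 370 and 351. The venous and lymphatic list differed more, with 15 of 15 genes higher in replicate 2, a median of 1.06 and a sum 2.10-fold higher. The arterial list differed less, with 6 of 8 genes higher and a median of 0.38, and unc5b, a netrin receptor gene, went the other way (1012 and 691). The tip cell list had a median of 0.56 and the endocardium and flow list one of 0.38. The brain endothelium list had a median of 0.022, near that of all genes, with 5 of 7 genes higher in replicate 2. Its summed values were 1.43-fold higher in replicate 2, with adgra2, its most abundant gene, among the higher ones.

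Replicate 1 held more reads of muscle, erythroid and neural genes. The 25 muscle genes whose mean reached 5 were all higher in replicate 1, with a median log2 ratio of -0.65 and a sum 1.62-fold higher. In the erythroid list 16 of 18 genes were higher in replicate 1 (median -0.67, sum 1.62-fold), in the neural list 17 of 19 (median -0.71, or -0.42 at a mean of at least 50, sum 1.15-fold), and in the stem cell and thrombocyte list 7 of 9 (median -0.58). The epidermal list had a median of -0.88, but its summed share was 0.168% in replicate 1 and 0.204% in replicate 2, since krt8 and krt18 held most of it. The leading neural gene, nova2, was higher in replicate 2. The myeloid list had a median of 0.031, with 10 of 18 genes higher in replicate 2. Lists outside the endothelium went both ways. The pigment list had a median of 0.73, with 9 of 12 genes and a sum 1.70-fold higher in replicate 2, at means of up to 73. The cartilage and neural crest list had a median of -0.21 but a sum 1.69-fold higher in replicate 2. The lens and the kidney and gut lists had medians of -1.58 and -0.91, over 5 genes each.

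**Figure D4:**
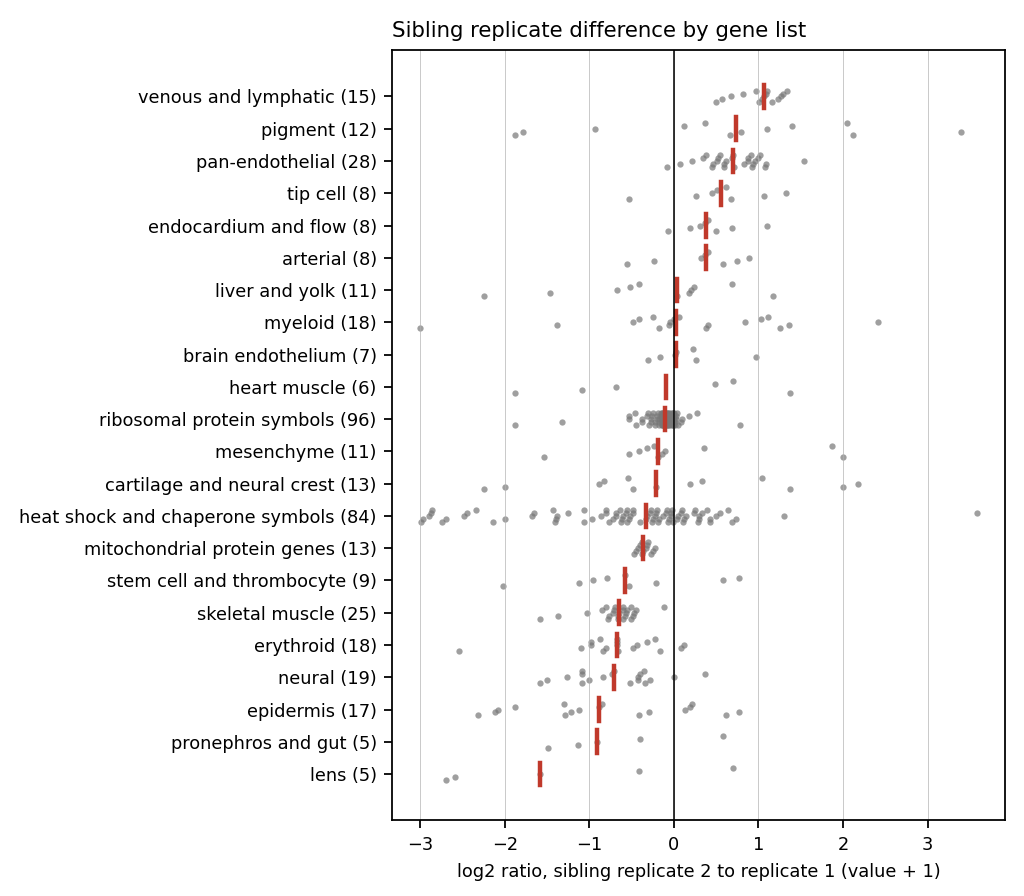
The log2 ratio of replicate 2 to replicate 1 (x axis, values plus 1) for each gene (grey points) of each list with at least 5 genes at a sibling mean of at least 5, and the list's median (red bar); the number of genes is in brackets. The venous and lymphatic list lies at 1.06 and the pan-endothelial list at 0.70, the brain endothelium list is at 0.022, and muscle, erythroid and neural genes lie to the left of 0, at -0.65, -0.67 and -0.71. The pigment list lies at 0.73, and the lens and the kidney and gut lists at -1.58 and -0.91.

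Inducible heat shock genes differed strongly between the replicates. Among the 5489 genes with a symbol other than a clone-based name and a sibling mean of at least 200, the 6 with the lowest ratio of replicate 2 to replicate 1 were hsp90aa1.1 (1506 and 189), hsp70.2 (16272 and 2190), hsp70.1 (14380 and 1958), hsp90aa1.2 (32210 and 4445), hsp70l (11715 and 1744) and hsp70.3 (17035 and 2640). These are 7.97, 7.43, 7.34, 7.25, 6.72 and 6.45 times higher in replicate 1. The hsp70 copies resemble each other closely and hsp70.1, hsp70.2 and hsp70.3 overlap the muscle gene atp2a1 in the annotation, while hsp90aa1.1 overlaps hsp90aa1.2, so that the values of these genes are not independent. Over 84 heat shock and chaperone genes the median log2 ratio was -0.32, with 61 higher in replicate 1, and the constitutive genes hspa8 and hsp90ab1 differed by log2 ratios of -0.21 and -0.03. The 84 genes were grouped after their values were seen. At the same minimum mean, 3 genes known only by a clone-based name, chosen after their values were seen, differed more, si:dkey-110c1.10 (1363 and 32), si:dkeyp-92c9.4 (433 and 36) and si:ch73-233k15.2 (440 and 43).

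The same heat shock genes also differed between replicates 1 and 2 in the other groups. For hsp90aa1.2 the mutants had 37193 and 2538 and the overexpression libraries 5534 and 895, and for hsp70.3 they were 15660 and 4826 and 11707 and 1501. Replicate 1 was the higher library in all 3 groups. Whether replicate numbers stand for a shared sort or day is not stated in the labels, and a part of handling in this difference was not tested.

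The 6 genes with the highest ratio were col9a1b, slc43a2a, an amino acid transporter gene (96 and 376), lyve1a, the paralogue of lyve1b (656 and 2267), hic1, a transcriptional repressor gene (112 and 342), exoc3l2a, an exocyst-related gene (463 and 1386), and plvapb, a gene of the diaphragms of endothelial fenestrae (1444 and 4216). The ratios were 4.57, 3.92, 3.46, 3.05, 2.99 and 2.92, in that order. Of these col9a1b is a cartilage collagen gene, and its value was 41 and 4 for mutants and 133 and 637 for overexpression. Outside the rule and chosen after its values were seen, cyp1a, a gene that the aryl hydrocarbon receptor induces, had 10725 and 3386 in siblings, while mutants had 4770 and 11031 and overexpression libraries 27510 and 22493.

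**Figure D5:**
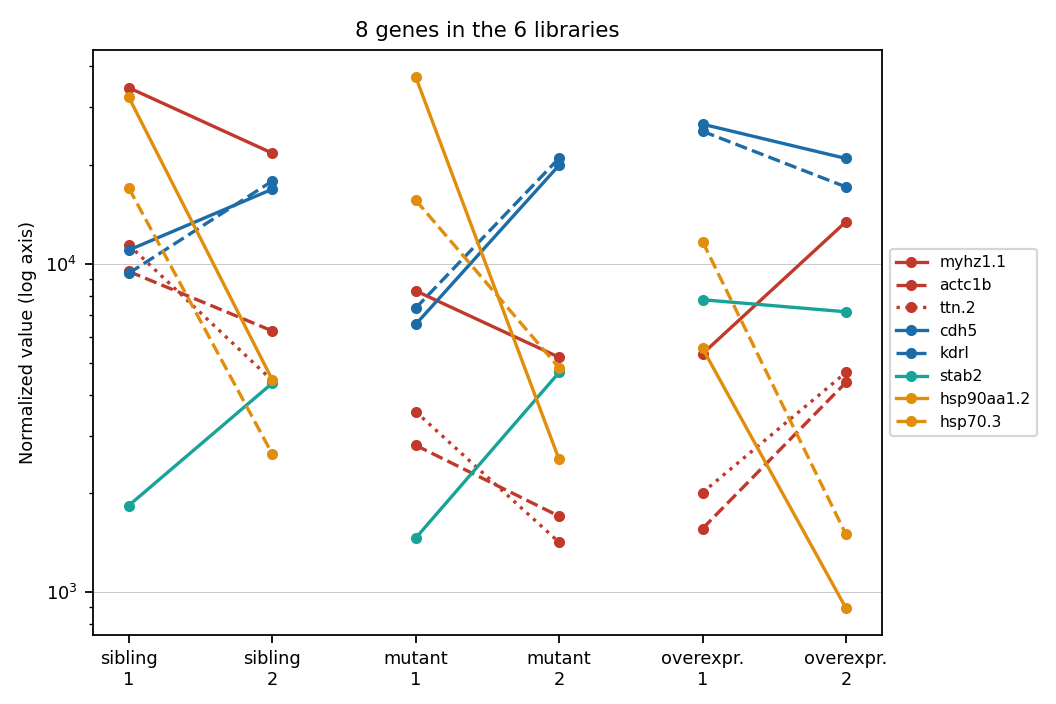
Normalized values (y axis, log scale) of 8 genes in the 6 libraries, with the 2 libraries of a group joined. The muscle genes myhz1.1, actc1b and ttn.2 (red) are highest in sibling replicate 1, cdh5, kdrl and stab2 (blue and green) are higher in replicate 2 than in replicate 1 of the siblings and mutants, and hsp90aa1.2 and hsp70.3 (orange) are lower in replicate 2 in all 3 groups.

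To place the baseline among the other groups, log2 values with 1 added were compared by limma with all 6 libraries in one fit, over the 20900 genes whose mean was 5 or more. Between siblings and mutants 0 genes (0%) passed an adjusted p of 0.05 by limma, while 711 had an unadjusted p under 0.05, and between siblings and overexpression 0 genes (0%) passed, while 3135 had an unadjusted p under 0.05. By the mutant comparison, 23 of the 25 muscle genes had an unadjusted p under 0.05 and a median log2 difference, siblings minus mutants, of 1.77, and by the overexpression comparison 21 of 25 with a median of 1.45, which was 0.73 without overexpression replicate 1 and 2.20 without overexpression replicate 2. The medians of all genes were 0.010 and -0.022. None of the muscle genes passed the adjusted threshold in either comparison of this fit, in which the lowest adjusted p-values of the list were 1 and 0.210 from limma. In a fit of only the 4 sibling and overexpression libraries, 2 of the 25 muscle genes passed, 1 of them higher in siblings. Of all 20900 genes, 841 (4.02%) passed there. Without mutant replicate 1 or replicate 2 in the fit, 13 and 2 genes passed against mutants and 793 and 838 against overexpression, and without overexpression replicate 2, 1 gene passed against overexpression. Both comparisons share the sibling libraries.

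Muscle genes stood apart in the ranges of the libraries. Both sibling libraries lay above all 4 others for 18 of the 25 muscle genes, where 5.72% of the 20849 non-rRNA genes did so and 4.72% lay below all 4. For myhz1.1 (ENSDARG00000067990, chromosome 5, 31698473 to 31708976) the sibling values of 34428 and 21763 compared with 8286 and 5198 in mutants and with 5327 and 13450 in overexpression. The log2 difference was 2.06 against mutants (standard error 0.44, adjusted p = 1 from limma) and 1.69 against overexpression (standard error 0.44, adjusted p = 0.212 from limma). The muscle list held 1.22% and 0.708% of the non-rRNA total in siblings, above its share in mutants (0.301% and 0.172%) and in overexpression (0.202% and 0.499%), without overlap. The slow myosin gene smyhc1 did not follow, at 45 and 26 in siblings, with 716 and 18 for mutants and 546 and 846 for overexpression.

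The endothelial lists were not alike in how siblings compared. The pan-endothelial list held 0.417% and 0.656% in siblings. Its share was 0.254% and 0.726% for mutants and 1.02% and 0.771% for overexpression, so that both sibling libraries lay between the mutant libraries and below the overexpression libraries. Of its 28 genes, hhex was the one whose sibling values lay below all 4 others (3.57% of the list, where 4.72% of the 20849 non-rRNA genes did so). Its log2 difference was -1.82 against mutants (standard error 0.33, adjusted p = 1 from limma) and -1.81 against overexpression (standard error 0.33, adjusted p = 0.191 from limma). The venous and lymphatic list held 0.0937% and 0.184% in siblings against 0.296% and 0.264% in overexpression, with the mutant libraries at 0.0493% and 0.161%. The brain endothelium list had a median log2 difference, siblings minus overexpression, of -1.56. Of its 7 genes 5 had an unadjusted p under 0.05, as did 3135 of all 20900 genes, and 0 passed the adjusted threshold (lowest adjusted p = 0.208 from limma). Its slc2a1a had 41 and 33 in siblings and 877 and 325 in overexpression. The stem cell and thrombocyte list went the other way. It held 0.0320% and 0.0212% in siblings, while mutants had 0.0484% and 0.0173% and overexpression 0.00516% and 0.00654%, where the gate differed. Between siblings and overexpression 8 of its 9 genes had an unadjusted p under 0.05 (median log2 difference 2.97), against 3135 of all 20900 genes. None of these 9 genes passed the adjusted threshold, with a lowest adjusted p of 0.191 from limma. In a fit of only the 4 sibling and overexpression libraries 6 of the 9 stem cell and thrombocyte genes passed. So did 4 of the 7 brain endothelium, 3 of the 28 pan-endothelial and 1 of the 15 venous and lymphatic genes. The arterial, tip cell and endocardium and flow lists each had 2 of 8 genes passing, against 841 of all 20900 genes (4.02%). Both passing genes of the endocardium and flow list were higher in siblings. In that fit hhex had an adjusted p of 0.00639 from limma. Over the alternatives with 2 libraries in each fitted group, its adjusted p from limma against overexpression lay between 0.00639 and 0.336. Against mutants the lowest adjusted p of hhex in such alternatives was 0.623 from limma. With 1 library left out, the log2 difference of hhex against mutants lay between -2.27 (without mutant replicate 1) and -1.36 (without mutant replicate 2).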

How the data were processed

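EGFP+ endothelial cells were sorted from dissociated 48 hpf embryos, RNA was isolated, and libraries were made with a SMARTer stranded total RNA kit and sequenced as single reads. Trimming was done by the authors with Reaper, alignment to GRCz10 (Ensembl annotation) with STAR, counting of exon reads with featureCounts and normalization with DESeq2; multi-gene and multi-aligned reads were stated to be excluded. The strand setting of the counting is not given in the sources used here. What the authors deposited is a signal for each gene, the read number over the library's size factor as a whole number. They are not counts, so no count model was fitted, and 0 other value columns were left out. Nuclear and mitochondrial rRNA and other noncoding RNA took a large share of the reads, and the cause was not tested.

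From these values the ranks, shares, ratios and SDs were computed in Python (3.11.15, pandas 2.3.3). Ratios are log2 of the value plus a pseudocount of 1, which understates the change of low genes. Groups were compared with limma 3.58.1 in R 4.3.3 on log2(value + 1) of the 20900 genes whose mean was 5 or more, rRNA included, with a mean trend, robust estimation, all 3 groups in one fit and no replicate block (7.96 degrees of freedom in total), two-sided, with Benjamini-Hochberg adjustment over all genes and a threshold of 0.05. Of 275 symbols in 19 marker lists 265 were matched, 5 of them (hhex and plvapb among them) through a reference table. Depth came from steps between low values.

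Genes are named by this rule: the 20 highest-ranked genes, the 6 highest of each class, the 3 highest of each list and defining markers at or near 0, the 6 highest and 6 lowest replicate ratios among genes with a symbol and a mean of at least 200, hhex, and the 3 largest called changes each way among the 200 highest genes, of which there were none. Other genes were chosen after their values were seen. The members, lists and rules were chosen with earlier results of these data known. Alternatives were other pseudocounts, minima, scalings, denominators, sample sets and each library left out. Exon lengths and gene sequences were not used here, so no ranking per length and no promoter search was made.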

Additional observations from a re-analysis of the deposited data

How the results depend on the processing

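The 10 highest genes held 46.9% of the non-rRNA total as a mean of the 2 libraries, 55.3% with rRNA kept and 34.4% among protein-coding genes alone, and between 46.1% and 47.7% without either replicate. The share of genes within 2-fold, 81.5%, was 80.0% with a pseudocount of 0.1, 86.9% with 5, 94.6% at a mean of at least 50, 78.2% with no minimum, 80.6% scaled to the non-rRNA total and 80.8% with the median log2 ratio set to 0. A comparison without heat shock genes, added after the data were seen, gave 81.5%. Over the 19 lists, the medians between replicates that changed direction were those of the myeloid (-0.067), brain endothelium (-0.076) and liver and yolk (-0.060) lists when scaled to the non-rRNA total, of the lens list at a mean of at least 50 (0.70) and of the heart muscle list with no minimum (0.16). The neural median was -0.42 at a mean of at least 50. Class shares of the total with rRNA were 0.632% for endothelial, 0.114% for blood, 0.858% for other tissue, 0.593% for transcription factor, 0.386% for receptor and 0.284% for matrix genes. Among protein-coding genes they were 1.33%, 0.238%, 1.79%, 1.24%, 0.808% and 0.595%, in the same order. Without the 2 highest genes, a denominator added after the data were seen, they were 1.55%, 0.279%, 2.09%, 1.45%, 0.943% and 0.695%. Without 1 replicate they lay between 0.749% and 1.13%, 0.150% and 0.190%, 1.03% and 1.53%, 0.857% and 0.909%, 0.523% and 0.625%, and 0.384% and 0.462%.

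Between siblings and mutants 90 genes passed with no minimum (61 higher in siblings), and between 0 and 13 with 1 library left out, the 13 without mutant replicate 1 and 2 genes without mutant replicate 2. Between siblings and overexpression 4 genes passed at an adjusted p of 0.1, 121 with no minimum (80 higher in siblings), 841 in a fit of only the 4 libraries (449 higher in siblings), and between 0 and 838 with 1 library left out, with 793 and 838 without mutant replicate 1 and 2. The other settings gave 0. The median of the pan-endothelial list against mutants, 0.10, was -0.23 without sibling replicate 2, -0.58 without mutant replicate 1 and 0.76 without the other mutant library. The muscle median against overexpression, 1.45, was 0.73 without overexpression replicate 1 and 2.20 without overexpression replicate 2. The cause was not tested. Where a group was left with 1 library, that library is assumed to vary like the others. Over 11850 genes the replicate differences correlated at 0.49 between siblings and mutants. The correlation was -0.11 between siblings and overexpression and -0.20 between mutants and overexpression. The main fit did not treat the numbers as pairs, although siblings and mutants of the same number tended to differ in the same direction. With a replicate block over all 3 groups, 0 genes passed in both limma comparisons, with 734 and 3315 at an unadjusted p under 0.05. A fit of siblings and mutants alone with such a block was not run. A ranking per length was not run. Of genes with means of 5 to under 20, 57.4% lay within 2-fold, against 96.8% at 1000 and above.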
